A study of Mus musculus with 10 samples.

Results

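Insig1 and Scap code for proteins of the endoplasmic reticulum that sense sterols and hold back or escort SREBP transcription factors. Srebf2 codes for the precursor of one of these factors, SREBP-2. All probe sets whose platform annotation gave exactly 1 symbol, being Insig1, Scap or Srebf2, were taken. These were 4 probe sets (1 for Insig1, 2 for Scap and 1 for Srebf2), for 3 of the 7542 genes measured by the 12411 probe sets tested. The data are log2 expression values from 10 Affymetrix MG_U74Bv2 arrays of male mouse liver, 2 for each of 5 groups. TgSREBP-1a and TgSREBP-2 mice carried transgenes for the active nuclear forms of human SREBP-1a and human SREBP-2, and wild type littermates served as transgenic-study controls. All 3 of these groups were 12 to 16 weeks old and ate a diet high in protein and low in carbohydrate for 2 weeks, given to raise the expression of the transgenes. Scap-/- mice carried MX1-Cre, a Cre recombinase under an interferon-responsive promoter, and lacked SCAP in the liver. They and their wild type counterparts, the Scap-study controls, were 10 to 12 weeks old, ate Teklad chow and had 4 intraperitoneal injections of polyinosinic-polycytidylic acid, and were killed 14 days after the final injection. The sources used here name neither the promoter of the transgenes nor the cells other than hepatocytes in which MX1-Cre acted. Each group was 1 pool (20 µg) of RNA from 5 livers, hybridised to 2 arrays. Every p-value therefore compares pools against the spread between hybridisations, not between mice. In whole liver, fewer cells of a type and less RNA per cell cannot be told apart.

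SREBPs are made as membrane proteins of the endoplasmic reticulum, where they are bound to SCAP. When membrane cholesterol is low, SCAP escorts SREBP to the Golgi apparatus, and the site-1 and site-2 proteases (genes Mbtps1 and Mbtps2) release the part that enters the nucleus. When sterols are plentiful, INSIG proteins hold SCAP and SREBP in the endoplasmic reticulum, and they also promote the degradation of HMG-CoA reductase. Nuclear SREBPs activate genes of cholesterol and fatty acid synthesis in liver, and Insig1 and Srebf2 are themselves known targets. The transgenic proteins lack the membrane anchor and so need no escort, whereas loss of SCAP removes the escort for all SREBP forms of the cell.

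The regions just upstream of the 3 genes are shown because Insig1 and Srebf2 are known SREBP targets and the transgenes and the deletion change nuclear SREBP. They are the 250 bases before each annotated start, on the plus strand of GRCm38.p6, from RefSeq: chr5:28071162-28071411 for Insig1, chr15:82147019-82147268 for Srebf2 and chr9:110333106-110333355 for the second of the Scap starts. Capitals mark matches, on either strand, to the motifs named after the sequences.
Insig1: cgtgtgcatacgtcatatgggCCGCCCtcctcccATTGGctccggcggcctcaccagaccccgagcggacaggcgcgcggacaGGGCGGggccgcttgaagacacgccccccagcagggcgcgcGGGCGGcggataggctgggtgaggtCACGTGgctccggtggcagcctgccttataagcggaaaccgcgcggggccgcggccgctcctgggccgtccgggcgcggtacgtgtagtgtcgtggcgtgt
Srebf2: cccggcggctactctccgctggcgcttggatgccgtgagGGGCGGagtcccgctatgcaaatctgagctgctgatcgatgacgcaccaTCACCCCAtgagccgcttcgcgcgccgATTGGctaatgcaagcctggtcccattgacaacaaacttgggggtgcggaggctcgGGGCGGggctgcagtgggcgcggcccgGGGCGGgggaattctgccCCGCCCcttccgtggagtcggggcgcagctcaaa
Scap: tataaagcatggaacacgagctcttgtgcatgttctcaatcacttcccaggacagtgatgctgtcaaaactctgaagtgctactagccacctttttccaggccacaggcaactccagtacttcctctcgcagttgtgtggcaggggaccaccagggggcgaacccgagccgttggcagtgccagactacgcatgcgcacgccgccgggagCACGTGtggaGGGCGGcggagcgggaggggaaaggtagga
The motifs were the E-box CACGTG, the CCAAT box CCAAT, the GC box GGGCGG and the sterol regulatory element in a long form, TCACNCCAC, and a short form, TCACNCCA, which lies within the long one. Among 32851 windows of the same length, 1.05% held the long form, 3.67% the short form, 6.02% the E-box, 33.8% the CCAAT box and 32.7% the GC box. The Insig1 window held an E-box that began 101 bases before the start, 1 CCAAT box and 3 GC boxes, and neither form of the sterol regulatory element. The Srebf2 window held the short form 162 bases before the start, 1 CCAAT box and 4 GC boxes. The short form was added as a motif after this window had been seen, so its match here is no independent find. The printed Scap window held an E-box 40 bases and a GC box 30 bases before the start, and the window of the other Scap start, which overlaps it, held none of the motifs. These are matches of letters and not measured binding sites, and a missing match says nothing about binding of a factor.

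The arrays had medians between 5.63 and 5.66, and duplicates correlated at 0.9871 to 0.9944. The highest value of any probe set, controls included, was 12.30 on TgSREBP-2 array 2 and 13.31 to 13.52 on the other arrays. In the Scap study every array was closer to an array of the other group than to its own duplicate (Scap-/- array 1 with control array 2, 0.993). The second TgSREBP-2 array was likewise closer to a wild type array (0.9915) than to its duplicate (0.9891). Of 3 hepatocyte markers measured (of 16 listed), the summed unlogged level was 11505 to 12678 in transgenic-study controls, 7739 to 8414 in TgSREBP-1a, 6046 to 11602 in TgSREBP-2, 12154 to 13195 in Scap-study controls and 10187 to 11778 in Scap-/-. Of 3 pancreatic acinar markers measured (of 10), the sum was 1970 to 2642, 227 to 228, 3217 to 4228, 912 to 1114 and 260 to 269 in the same order. Besides acinar genes, C8a and C8b, 2 of the 3 hepatocyte markers, were called lower in TgSREBP-1a than in controls. In the same line Cd163, 1 of 2 macrophage markers measured, and Lyve1, 1 of 4 endothelium markers measured, were called higher. In TgSREBP-2 Tfrc was called higher, the only 1 measured of 7 genes on the erythroid list.

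Scap, the targeted gene, fell in Scap-/- liver and did not pass the test in either transgenic line. SCAP is the sterol-sensing escort of SREBP. The brighter probe set (109170_at) had log2 values of 9.24 and 8.89 in the controls and 7.94 and 7.75 in Scap-/- liver. Both knockout arrays lay below all 8 other arrays of the series. The difference was -1.22 ± 0.18 (limma, SE), a 2.33-fold lower level, with a 95% interval from -1.61 to -0.83 and an adjusted p of 0.0175. In this comparison 0.0161% of probe sets were called higher and 0.258% lower. The call was lost when Scap-/- array 1 (adjusted p = 0.0581 by limma) or array 2 (0.232) or control array 1 (0.149) was left out, and in a fit of these 4 arrays alone (0.16), with the change between -1.40 and -1.05 in the settings that left out an array.

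The dimmer Scap probe set (165021_at) did not show the deletion. It read 3.37 and 3.58 in wild type and 3.56 and 3.63 in Scap-/- liver, a difference of 0.12 on the log2 scale that was not called, and 1 knockout array lay between the wild type arrays. Of all probe sets, 6.7% had a lower mean over the 10 arrays than this one, against 97.7% for the brighter Scap set. Averaging both sets gave a Scap change of -0.55 with an adjusted p of 0.278 by limma. The sources used here do not place the probes of either set relative to the deleted exons, so the residual signal of the brighter set is no measure of intact transcript.

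In the transgenic study the brighter Scap set read 8.79 and 8.51 in wild type, 8.95 and 8.54 in TgSREBP-1a, with 9.16 and 8.87 in TgSREBP-2. TgSREBP-1a arrays overlapped the wild type ones, and both TgSREBP-2 arrays lay above them. The changes were 0.10 with a 95% interval from -0.29 to 0.48 in TgSREBP-1a (adjusted p = 0.991 by limma) and 0.37 with an interval from -0.02 to 0.75 in TgSREBP-2 (adjusted p = 0.653). Neither interval reaches the fall seen in Scap-/- liver, and both include rises. The first array read above the second in all 5 groups on this probe set, and with the array number as a block neither change was called (adjusted p = 0.83 and 0.136 by limma). The dimmer set read 3.72 and 3.51 in wild type, 3.47 and 3.44 in TgSREBP-1a, with 3.91 and 3.54 in TgSREBP-2, with changes of -0.16 and 0.12 that were not called.

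Insig1 rose in both transgenic lines. It codes for a protein that retains SCAP, and its gene is itself activated by nuclear SREBP, which closes a feedback loop. Its probe set (162785_at) read 5.62 and 5.47 in transgenic-study controls. In TgSREBP-1a it read 8.62 and 8.54, and in TgSREBP-2 it read 7.72 and 8.11. Every transgenic array lay at least 2.09 above both transgenic-study control arrays. The change was 3.03 ± 0.24 (limma, SE) in TgSREBP-1a, 8.17-fold, with a 95% interval from 2.51 to 3.55 and an adjusted p of 6.03e-05. This was rank 1 among all rises by size. In TgSREBP-2 the change was 2.36 ± 0.24, 5.15-fold, with an interval from 1.84 to 2.89 and an adjusted p of 0.00105 by limma, rank 5 among the rises. Both lines were set against the same wild type arrays. In TgSREBP-1a 1.36% of probe sets were called higher and 0.814% lower, and in TgSREBP-2 0.338% and 0.161%. Both rises were called when any 1 of the arrays compared was left out, with changes of 2.95 to 3.11 and of 2.17 to 2.56. The sum of the measured acinar markers was low in TgSREBP-1a and high in TgSREBP-2, and its part in the Insig1 rises was not tested.

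Insig1 fell in Scap-/- liver. The Scap-study controls read 7.26 and 6.45, and the Scap-/- arrays read 4.53 and 4.12. The groups did not overlap, although the wild type duplicates, 0.81 apart, were the widest pair for this gene. The difference was -2.53 ± 0.24 (limma, SE), 5.78-fold lower, with a 95% interval from -3.06 to -2.01 and an adjusted p of 0.00134, rank 3 among the falls. It was called when any 1 of the arrays compared was left out, at -2.94 to -2.13. A fit of the 4 arrays of the Scap study alone lost the call (adjusted p = 0.122 by limma) at the same change, with an SE of 0.28. Why the call was lost was not tested. The 2 acinar genes Cela3b and Cpb1 were called lower in the same comparison, and their part in it was not tested.

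**Figure D1:**
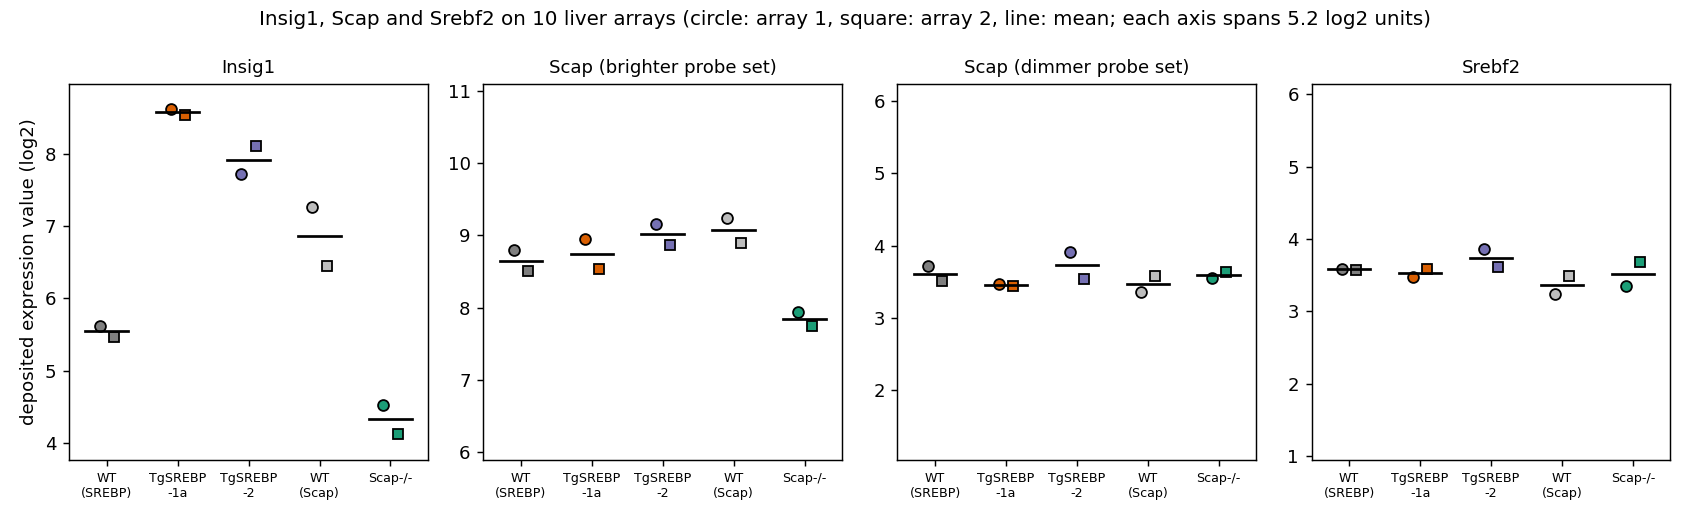
Deposited log2 values of the 4 probe sets of Insig1, Scap and Srebf2 (vertical axes, each spanning the same number of log2 units) on the arrays of the 5 groups (horizontal axis), with points for arrays and a line for the group mean. Insig1 runs from 4.12 in Scap-/- to 8.62 in TgSREBP-1a, the brighter Scap set is lowest on both Scap-/- arrays, and the dimmer Scap set and Srebf2 stay between 3.24 and 3.91.

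The wild type pools differed in Insig1. Transgenic-study controls (5.62 and 5.47) both lay below Scap-study controls (7.26 and 6.45). The difference was -1.31, 2.48-fold lower, with a 95% interval from -1.83 to -0.79 and an adjusted p of 0.0433 by limma. Between these pools 0.153% of probe sets were called higher and 0.355% lower. The call was lost in a fit of these 4 arrays alone (adjusted p = 0.215). It was also lost without Scap-study control array 1 (-0.90, adjusted p = 0.148 by limma) and without transgenic-study control array 1 (-1.39, 0.22) or array 2 (-1.23, 0.395). Diet, age, injections and study all differ between these pools, and their parts cannot be told apart. The brighter Scap set differed in the same direction by -0.42, with an interval from -0.81 to -0.03, and was not called (adjusted p = 0.475). Of 9 measured genes of cholesterol synthesis, 5 were called lower in the transgenic-study controls (median -1.23), among them Idi1 (-1.83), Pmvk (-1.66) and Cyp51 (-1.23). That count was 3 without Scap-study control array 1, 2 without transgenic-study control array 2 and 1 in the fit of these 4 arrays. Scap-/- was compared with its own chow-fed, injected wild type only.

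Ordered by its mean, Insig1 was highest in TgSREBP-1a (8.58), then TgSREBP-2 (7.91), Scap-study controls (6.86), transgenic-study controls (5.55) and Scap-/- (4.33). From the lowest array to the highest, the level spanned 22.5-fold, which was rank 6 among the ranges of the 12411 probe sets. The gaps between the nearest arrays of neighbouring groups were 0.43, 0.45, 0.83 and 0.94, against a widest duplicate gap of 0.81. The nearest-array gaps from TgSREBP-1a to TgSREBP-2 and on to Scap-study controls were thus under that widest duplicate gap, and the lower ones were above it. The steps between means were 0.67, 1.05, 1.31 and 1.22, of which only the first was under it. That widest duplicate gap was that of the Scap-study controls themselves. TgSREBP-2 against Scap-study controls and transgenic-study controls against Scap-/- cross studies and were not tested.

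The transgenic lines were compared directly. Insig1 was higher in TgSREBP-1a by 0.67, 1.59-fold, with a 95% interval from 0.14 to 1.19, and was not called (adjusted p = 0.219 by limma). The arrays of the lines did not overlap. In this comparison 1.18% of probe sets were called higher and 0.677% lower. A fit of these 4 arrays alone called the difference (adjusted p = 0.0389), and leaving out 1 array moved it between 0.47 and 0.86. The brighter Scap set differed by -0.27, the dimmer one by -0.27 and Srebf2 by -0.21, with none called. The cholesterol synthesis list had a median difference of -0.44 here, with 1 of 9 genes, Idi1, called lower in TgSREBP-1a (-1.18), a count that was 0 without TgSREBP-1a array 1, 2 without TgSREBP-2 array 2, and 3 in the fit of these 4 arrays and with the array number as a block. The amounts of the nuclear proteins in the lines were not measured here.

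**Figure D2:**
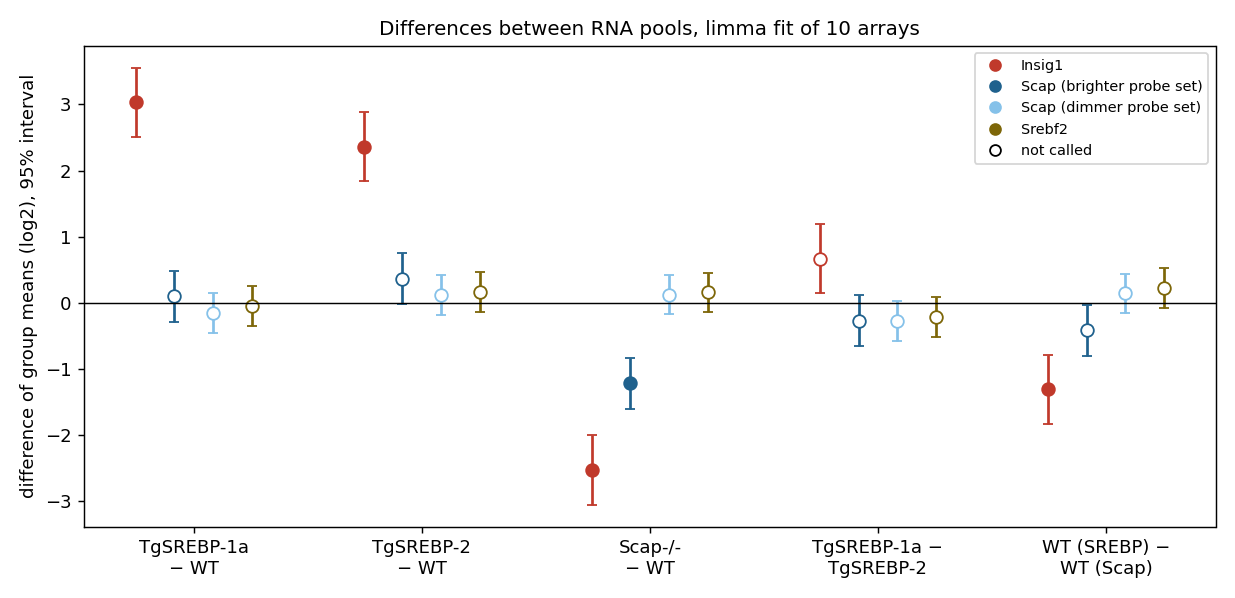
Difference of group means on the log2 scale with its 95% interval (vertical axis) for each probe set of Insig1, Scap and Srebf2 in the 5 comparisons (horizontal axis), with filled points for called changes. Insig1 stands at 3.03 and 2.36 in the transgenic lines and at -2.53 in Scap-/-, and the brighter Scap set at -1.22 in Scap-/-.

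Srebf2 passed the test in none of the 5 comparisons. It codes for the SREBP-2 precursor. Its probe set (112335_at) read 3.59 and 3.58 in transgenic-study controls, 3.48 and 3.58 in TgSREBP-1a, with 3.86 and 3.62 in TgSREBP-2. It read 3.24 and 3.49 in Scap-study controls and 3.36 and 3.68 in Scap-/-. The TgSREBP-2 arrays both lay just above the wild type arrays, and the other line and the knockout overlapped their wild type. The changes were -0.05 (95% interval from -0.35 to 0.25) in TgSREBP-1a, 0.16 (-0.14 to 0.46) in TgSREBP-2 and 0.16 (-0.14 to 0.46) in Scap-/-. Only 6.1% of all probe sets had a lower mean, against 72.5% for Insig1, so this probe set lies near the floor of the scale, where RMA values compress changes. The intervals are those of the probe set's signal and do not bound the change of the transcript. The sources used here do not say whether the set reads the human SREBP-2 transgene.

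Insig2, which codes for the other INSIG protein, passed the test in none of the 5 comparisons on either of its probe sets, and whether its changes differ from those of Insig1 was not tested. On probe set 107516_at it read 10.04 and 9.56 in wild type, 10.61 and 10.07 in TgSREBP-1a, with 9.42 and 9.19 in TgSREBP-2. On probe set 111948_at the same groups read 10.48 and 9.86, 10.76 and 10.22, and 9.74 and 9.31. Of all probe sets, 99.5% and 99.6% had a lower mean than these sets. The highest value of TgSREBP-2 array 2 was below that of every other array, and its part in these readings was not tested. On both sets the mean was lowest in TgSREBP-2 and highest in TgSREBP-1a. The changes against wild type were 0.54 and 0.32 for TgSREBP-1a and -0.50 and -0.64 for TgSREBP-2, with none called. Between the lines the difference was 1.04 (95% interval from 0.43 to 1.64) on the first set and 0.96 (0.40 to 1.52) on the second, with adjusted p = 0.0982 and 0.0972 by limma. These differences were called in fits of these 4 arrays alone (adjusted p = 0.0126 and 0.0317), with the array number as a block (0.000437 and 0.000222) and after a further quantile normalization (0.041 and 0.0358). Neither was called in the other 8 of 11 settings, such as median centring (adjusted p = 0.103 and 0.104 by limma). Leaving out 1 array gave 0.76 to 1.31 on the first set and 0.69 to 1.23 on the second.

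In the Scap study Insig2 read 10.40 and 9.74 in wild type and 9.77 and 9.14 in Scap-/- on 107516_at. On 111948_at it read 10.21 and 9.84 against 10.04 and 9.61. The knockout overlapped wild type on both sets, with changes of -0.61 and -0.19 that were not called. With the array number as a block, 107516_at was called lower in Scap-/- (adjusted p = 0.0369 by limma) and 111948_at lower in TgSREBP-2 (adjusted p = 0.00824). In the same fit the change of 107516_at in TgSREBP-1a had an adjusted p of 0.0212 by limma but stayed under 1.5-fold (0.54, 1.45-fold). In all 5 groups the first array read above the second on both sets, a difference between hybridisations that the block takes up.

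**Figure D3:**
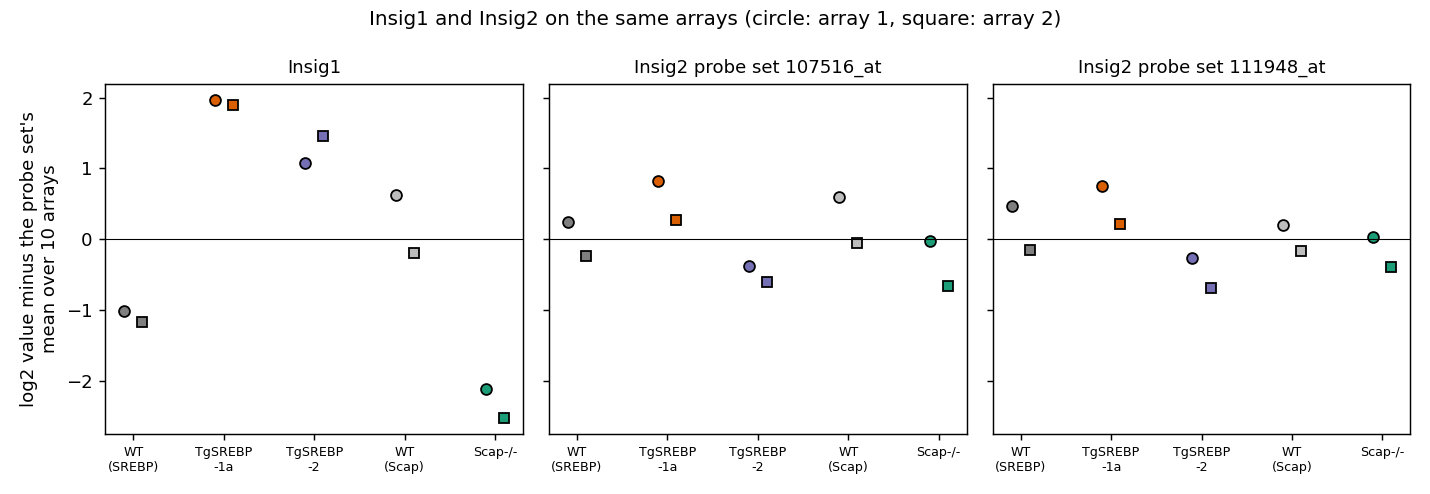
Log2 values of the Insig1 probe set and the 2 Insig2 probe sets, each minus the set's mean over the 10 arrays (vertical axis), on the arrays of the 5 groups (horizontal axis). Insig1 is far higher in both transgenic lines than in transgenic-study controls. Both Insig2 sets have their lowest transgenic values in TgSREBP-2 and their highest in TgSREBP-1a.

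Of the processing enzymes, Mbtps2 (164110_at), the site-2 protease, read 3.66 and 3.51 in wild type, 4.01 and 3.81 in TgSREBP-1a, with 3.45 and 3.61 in TgSREBP-2. TgSREBP-1a arrays both lay above these transgenic-study controls, a change of 0.32 that was not called (adjusted p = 0.293 by limma). The TgSREBP-2 change was -0.06. In Scap-/- it read 3.93 and 3.73 against 3.91 and 3.88, a change of -0.06. Only 10.1% of all probe sets had a lower mean, so this set too lies near the floor of the scale. Across a list of 26 genes of SREBP retention, escort and cleavage, which also holds the COPII coat proteins Sec24a, Sec24b and Sec24d, 12 were measured. Without Insig1, Scap and Srebf2, 9 remained. Of all probe sets, 0.0161% to 1.36% were called per comparison and direction. Of these 9 genes, 0 passed the limma test in any of the 5 comparisons, which is near those shares. At an unadjusted p under 0.05 they gave 2 rises in TgSREBP-1a, 1 fall in TgSREBP-2, 2 falls in Scap-/-, 3 rises of TgSREBP-1a over TgSREBP-2 and 1 gene lower in transgenic-study than in Scap-study controls. Over all probe sets the shares at that threshold were 6.01%, 4.5%, 4.39%, 8.49% and 5.65% in the same order and direction. The median change of the 12 genes was 0.10, -0.05 and -0.13 in TgSREBP-1a, TgSREBP-2 and Scap-/-, against -0.02, -0.02 and 0.02 over all probe sets.

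INSIG proteins also serve as platforms for the ubiquitin ligases that degrade HMG-CoA reductase. Of 26 genes of that machinery, 13 were measured, and 0 passed the limma test in any of the 5 comparisons. That count too is near the 0.0161% to 1.36% of all probe sets called per comparison and direction. At an unadjusted p under 0.05, there was 1 rise in TgSREBP-1a, 1 rise in Scap-/- and 1 rise of TgSREBP-1a over TgSREBP-2. Over all probe sets these shares were 6.01%, 3.34% and 8.49%. The median changes of the list were 0.13 in TgSREBP-1a, 0.02 in TgSREBP-2 and -0.06 in Scap-/-. Of 24 genes for nuclear partners and turnover of SREBP, 13 were measured. Of all probe sets, 1.36% were called higher in TgSREBP-1a. Nfyb, a subunit of the CCAAT-binding factor NF-Y, was called higher in TgSREBP-1a by 0.68 ± 0.16 (limma, adjusted p = 0.0468), and no other gene of the list was called against wild type. That call was lost when any 1 of the 4 arrays was left out (adjusted p between 0.171 and 0.356).

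Cholesterol synthesis genes are the best known SREBP-2 targets. Of 9 measured (of 23 listed), 6 rose in TgSREBP-1a, 8 rose in TgSREBP-2 and 6 fell in Scap-/-, where 1.36% and 0.338% of all probe sets rose and 0.258% fell. The median changes of the list were 1.61, 1.49 and -1.17. Phosphomevalonate kinase, Pmvk, changed by 2.98, 2.85 and -2.20 in these comparisons, all called by limma. The isomerase Idi1 changed by 1.61, 2.79 and -2.26, and lanosterol demethylase, Cyp51, by 2.12, 2.72 and -1.57, all called. Hsd17b7, a sterol ketoreductase, changed by 1.64, 3.02 and -2.39, and Nsdhl, a sterol dehydrogenase, by 1.05, 1.49 and -0.95. These were again all called. The Hsd17b7 calls in TgSREBP-1a and in Scap-/- were each lost in 3 of 11 settings. The Nsdhl call in Scap-/- was lost in 4 of 11. Lanosterol synthase, Lss, rose by 1.61 and 1.44, and its change of -0.59 in Scap-/- was not called. The count of 6 falls became 2 without Scap-/- array 2, 3 without control array 1 and 1 in a fit of the 4 arrays alone.

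Of 12 measured genes of sterol uptake and movement to the endoplasmic reticulum (of 26), 4 rose in TgSREBP-1a, 3 rose in TgSREBP-2 and 2 fell in Scap-/-, with medians of 0.17, 0.07 and -0.20. Of all probe sets, 1.36% and 0.338% rose and 0.258% fell. Stard4, a sterol carrier, changed by 1.68, 2.14 and -1.77, all called. Aacs, listed here although it is a cytosolic acetoacetyl-CoA synthetase and no carrier or uptake gene, changed by 1.32, 1.36 and -1.08, all called. Its call in TgSREBP-2 was lost in 2 of 11 settings and that in Scap-/- in 4 of 11. Abcg5, a subunit of the sterol exporter, rose by 1.34 and 1.61, and its change of -0.60 in Scap-/- was not called. Mylip, a ubiquitin ligase for the LDL receptor, rose in TgSREBP-1a by 0.87, a call lost when any 1 of the 4 arrays was left out, and its change in TgSREBP-2 was -0.05. The 2 falls became 0 without Scap-/- array 2 and in the fit of the 4 arrays alone, and 1 without Scap-/- array 1 or control array 1.

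**Figure D4:**
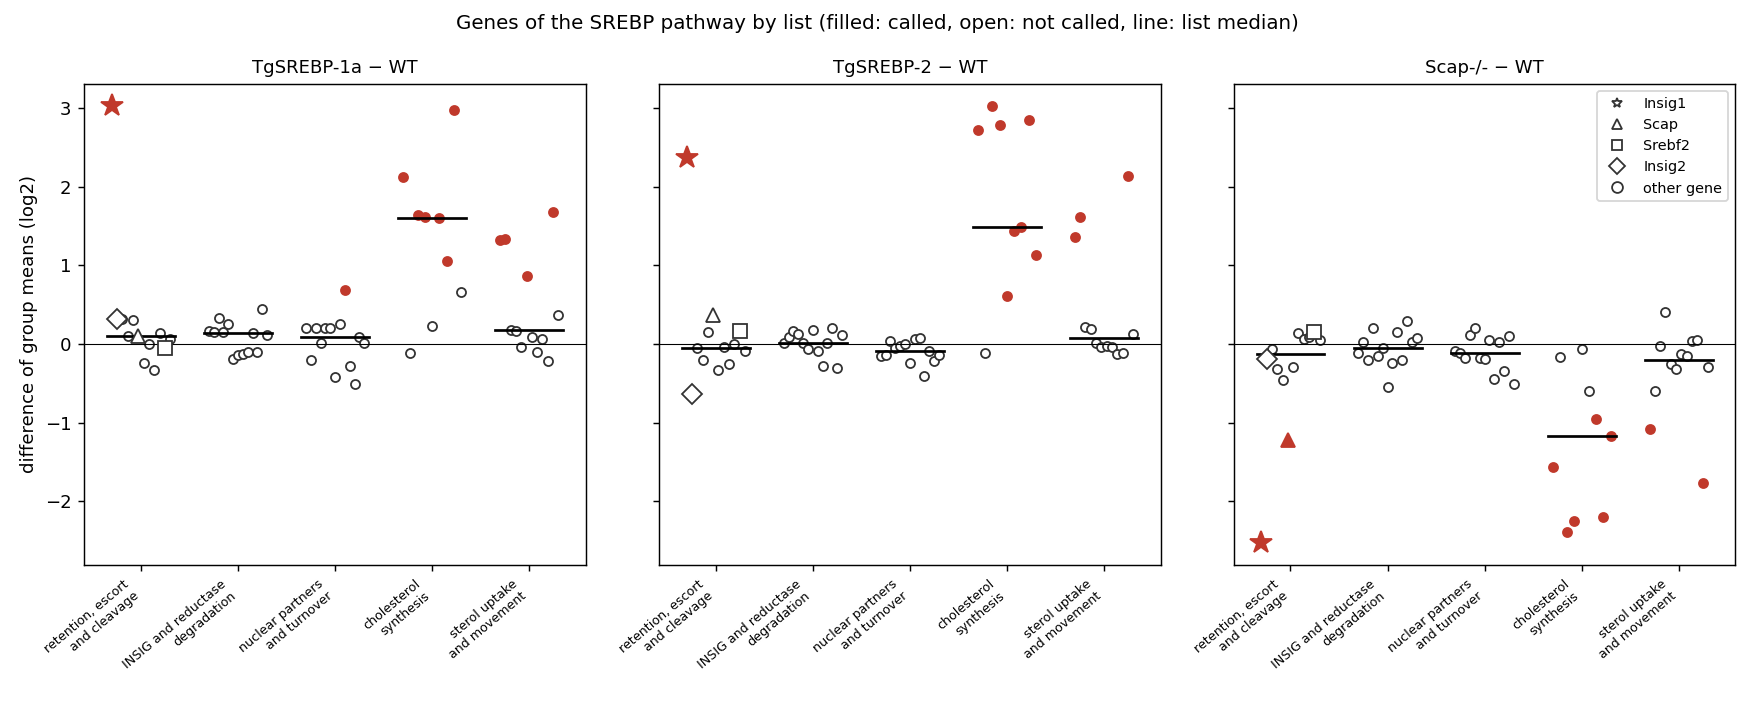
Difference of group means on the log2 scale (vertical axis) for the measured genes of 5 pathway lists (horizontal axis) in both transgenic lines and in Scap-/- against controls, with filled points for called genes and a line for each list's median. Insig1 at 3.03, 2.36 and -2.53 has the largest change of the plotted genes of retention, escort and cleavage in each panel. Pmvk of the cholesterol synthesis list stands at 2.98, 2.85 and -2.20.

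The genes whose pattern was most like that of Insig1, by Pearson r over the 10 arrays from 5 pools, were Pmvk (0.973), Acss2 (0.97), Pank3 (0.969), Mpv17l (0.963) and Stard4 (0.958). Acss2, a cytosolic acetyl-CoA synthetase, changed by 2.49, 1.95 and -2.33 in TgSREBP-1a, TgSREBP-2 and Scap-/-. Pank3, a pantothenate kinase, changed by 1.03, 0.99 and -0.76, and Mpv17l by 0.90, 1.01 and -0.80, the last value of each not called. The calls of Pank3 were lost in 3 (TgSREBP-1a) and 4 (TgSREBP-2) of 11 settings, and those of Mpv17l in 4 of 11 each. Those most like the brighter Scap set were Slco2a1 (0.96), Epm2aip1 (0.916), Uox (0.901), Hacl1 (0.893) and Tfdp2 (0.891). Of these, Epm2aip1 was called lower in Scap-/- (-0.61), a call lost in 4 of 10 settings. Uox, urate oxidase, had an uncalled change of -1.06 there. The arrays of a pool share their RNA, so these coefficients describe at most 5 independent levels.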

How the data were processed

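Livers were profiled on MG_U74Bv2 arrays. The deposited values are on a log2 scale, and the submitters' processing notes name RMA with no version given, a method that corrects background, equalises array distributions and summarises the probes of a set. The series' design text names MICROARRAY SUITE 5.0, whose signal is linear, so the deposited log2 values were taken as RMA output. Of 12477 probe sets, 66 controls were left out. Of the other 12411, 10581 had 1 symbol, 178 several and 1652 none in the platform annotation, and a RefSeq table changed 0 symbols. The sources used here give no genome build for the files. Srebf1 and Mbtps1 had no probe set with a single symbol and were not analysed here.

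A linear model with a mean for each group was fitted across the 10 arrays (limma 3.58.1, R 4.3.3), with 5 residual degrees of freedom before moderation. Tests were two-sided with Benjamini-Hochberg adjustment over 12411 probe sets. Called means an adjusted p under 0.05 and at least 1.5-fold (0.585 on the log2 scale). The median SE was 0.115, a precision set by the number of arrays. The procedure was tested on simulated data. A gene of a pathway list was read by its probe set of highest mean. The text names every member set, up to 6 called genes per list by size, Insig2 and Mbtps2, and the 5 genes most alike to each called member set. Marker sums are of unlogged values.

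Members and lists were chosen with earlier results of these data known. The short sterol regulatory element was added after the Srebf2 promoter had been seen. Alternatives were fits of the compared arrays alone, the array number as a block, median centring and a further quantile normalization. Others were an intensity trend with robust spread, no dim probe sets, no fold threshold and the mean of a gene's probe sets. Each comparison was also refitted without each array of its own groups in turn. Same-numbered arrays share only a number in the labels.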

Additional observations from a re-analysis of the deposited data

Results flagged for a closer look

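Among the genes named, 2 were called different between the transgenic lines by the direct limma test. Of all probe sets, 1.18% were called higher and 0.677% lower in TgSREBP-1a than in TgSREBP-2. Idi1 was lower in TgSREBP-1a than in TgSREBP-2 by a difference of -1.18 (adjusted p = 0.00266), and without TgSREBP-1a array 1 the adjusted p was 0.0527. Mylip was higher in TgSREBP-1a by 0.91 (adjusted p = 0.0101), and 3 of the 4 settings that left out an array of these lines lost that call (adjusted p up to 0.115). No cause was tested.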

How the results depend on the processing

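The calls of Insig1 in TgSREBP-1a, TgSREBP-2 and Scap-/- held without any 1 of the arrays compared. The changes were then 2.95 to 3.11, 2.17 to 2.56 and -2.94 to -2.13. The values -2.53 (Insig1) and -1.22 (Scap, brighter set) in Scap-/- and -1.31 (Insig1) between the wild type pools lost their calls with only the arrays compared, and Insig1 between the lines (0.67) gained one. Leaving out 1 array gave Insig1 between the wild type pools -1.72 to -0.90 and between the lines 0.47 to 0.86. It gave the brighter Scap set -1.40 to -1.05 in Scap-/- and -0.11 to 0.30 in TgSREBP-1a, where the mean of both sets was -0.031, and the mean in Scap-/- was -0.55.

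Uncalled values near 0 changed sign when 1 array was left out. Srebf2 ran from -0.11 to 0.0030 in TgSREBP-1a and from -0.0067 to 0.32 in Scap-/-, and the dimmer Scap set from -0.068 to 0.30 in TgSREBP-2. Insig2 on 111948_at ran from -0.41 to 0.022 in Scap-/- and from -0.16 to 0.46 between the wild type pools, and on 107516_at from -0.59 to 0.064 between those pools. Mbtps2 ran from -0.16 to 0.037 in Scap-/- and from -0.14 to 0.021 in TgSREBP-2.

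The number of probe sets called was 270 in TgSREBP-1a (142 to 193 without 1 array, lowest without TgSREBP-1a array 1), 62 in TgSREBP-2 (25 to 124, lowest without control array 1 and highest without TgSREBP-2 array 2), 34 in Scap-/- (10 to 68, lowest without Scap-/- array 2 and highest without control array 2), 231 between the lines (87 to 384, lowest without TgSREBP-1a array 1 and highest without TgSREBP-2 array 2) and 63 between the wild type pools (14 to 120, lowest without transgenic-study control array 2 and highest without Scap-study control array 2). With only the arrays compared it was 5 in Scap-/- and 13 between the wild type pools.

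Same-numbered arrays had correlated deviations in part (0.0573 to 0.598 over the comparisons), which does not pair them. With the replicate block every call of the 4 probe sets was kept (Insig1 adjusted p = 1.22e-05, 0.000316, 0.000163, 0.123 and 0.0112 by limma, in the order TgSREBP-1a, TgSREBP-2, Scap-/-, between lines and between wild types), and the brighter Scap set had 8.29e-05 in Scap-/-. Probe sets called with the block numbered 101 in TgSREBP-2, 91 in Scap-/- and 145 between the wild type pools.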
